A study of Mus musculus with 24 samples.

Results

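The isocitrate and malate dehydrogenases were taken as all array rows whose annotated symbol was Idh1, Idh2, Idh3a, Idh3b, Idh3g, Mdh1 or Mdh2. These 7 genes had 8 rows of the 26423 on the array, with 2 rows for Idh3a and 1 for each other gene, and were read within a test of 17742 genes. Tibialis anterior, a fast muscle of the mouse shin, was taken at 6 months of age from 4 control and 4 knockout animals, and the RNA of each was hybridised 3 times. Controls were Myf6 cre/+; Hira flox/+ and knockouts Myf6 cre/+; Hira flox/-, both on a mixed C57BL6/J and 129S1/SvImJ background. Every animal therefore carried the Myf6 cre allele, which is active in myofibres, and 1 floxed copy of Hira, the gene of a chaperone that deposits histone H3.3. The second copy was intact in controls, whose fibres therefore kept it, and null in all cells of the knockouts, so cells of the muscle that are not fibres also differed in genotype. The labels do not say whether animals of a group were littermates.

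Isocitrate dehydrogenases turn isocitrate into 2-oxoglutarate. The trimer of IDH3A, IDH3B and IDH3G does so with NAD in the citric acid cycle, while IDH2 in the mitochondrion and IDH1 in the cytosol and peroxisome use NADP and so make NADPH. Malate dehydrogenases interconvert malate and oxaloacetate, MDH2 as the last step of the cycle and MDH1 in the cytosol, and together they carry the reducing power of cytosolic NADH into mitochondria through the malate-aspartate shuttle.

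Intensities are the authors' deposited linear values, and levels below are log2 of these, averaged over the 3 hybridisations of an animal. Levels of different genes come from different probes and are not set against each other. Over genes, arrays of 1 animal correlated at 0.985 to 0.995. Between animals the correlation was 0.976 to 0.993 within a group and 0.968 to 0.987 across the groups. Hira itself stood at 8.97 ± 0.11 (SD, n = 4) in control and 8.82 ± 0.35 in knockout muscle, and this difference of -0.15 ± 0.17 (SE) did not pass the test (limma, adjusted p = 0.623). Knockout animal 2, at 9.31, lay above the controls, whose highest value was 9.11. No source used here places the Hira probe relative to the deleted part, and its level therefore checks no genotype label.

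Of the 7 genes, Mdh1 rose and Idh3g fell in knockout muscle, and the other 5 did not pass the test. The threshold was an adjusted p of 0.05, which 9.28% of all genes passed (4.28% rose and 5.01% fell). Under cyclic loess the balance turned, with 1309 genes higher and 1154 lower against 759 and 888 here. The 4 knockout animals lay apart from the 4 controls in 4 of the 7 genes (Mdh1, Mdh2, Idh1 and Idh3g), against 17.5% of all genes. The median difference of the 7 was -0.26 on the log2 scale, beside -0.066 over all genes. The 251 genes with a mean log2 level of 16 or more had a median of -0.15. That median moved to -0.032 under quantile normalization and -0.031 under cyclic loess. In 6 of the 7 dehydrogenase genes both groups lay above the dim level of the arrays, an intensity of 125, and Idh3b lay below it in both.

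**Figure D1:**
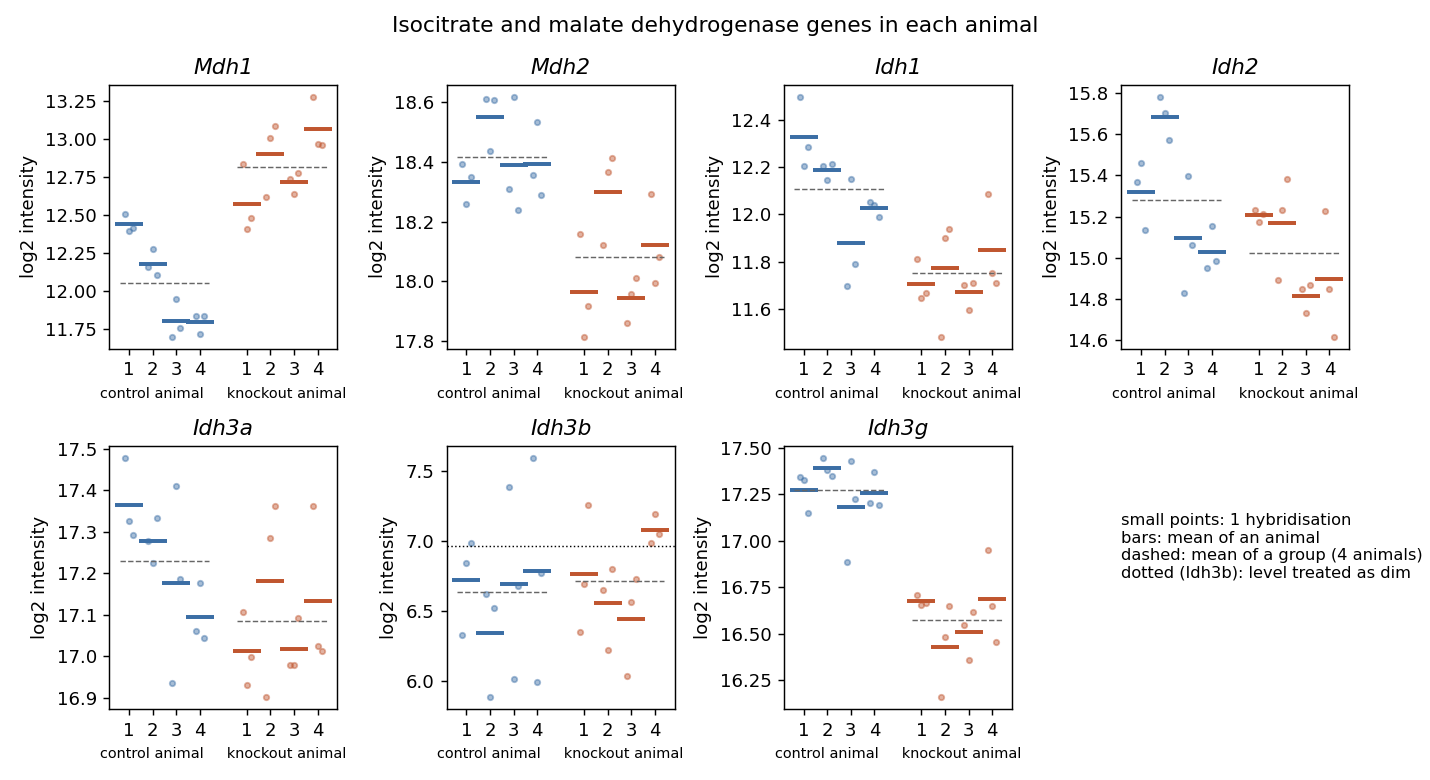
Log2 intensity of each gene (vertical axes, which differ between panels) in the 4 control (blue) and 4 knockout (orange) animals; small points are single hybridisations, bars are animal means and dashed lines are group means. Knockout animals lie above all controls for Mdh1 and below all controls for Mdh2, Idh1 and Idh3g, while Idh3b lies near the dotted dim level.

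Mdh1, the cytosolic malate dehydrogenase of the shuttle, rose 1.70-fold in knockout muscle. Its levels were 12.44, 12.18, 11.80 and 11.79 in control animals 1 to 4 and 12.57, 12.91, 12.72 and 13.07 in knockout animals 1 to 4. The groups did not overlap, although control animal 1 lay close to knockout animal 1 and single hybridisations overlapped (highest control array 12.51, lowest knockout array 12.41). The log2 difference was 0.76 ± 0.17 (SE; 95% interval 0.39 to 1.14; adjusted p = 0.0187), from mean intensities of 4252 and 7214. The mean of the controls carried an SD of 0.31 between animals, while the SD between hybridisations of an animal was 0.15. The animals' numbers in the labels fall into a lower series (control and knockout animals 1 and 2) and a higher series (animals 3 and 4). Within these, Mdh1 differed by 0.43 (adjusted p = 0.307) and 1.10 (adjusted p = 0.0422). The gap between those values, 0.67 ± 0.26 (SE), did not pass an interaction test added after the values were seen (adjusted p = 0.425, unadjusted p = 0.0327). That test called 0 of the 17742 genes, although 2065 had an unadjusted p under 0.05. With 2 animals a group in each series, it cannot decide whether the series differ. Leaving out control animal 3 ended the call of Mdh1 in the main fit (0.68; adjusted p = 0.0543). So did leaving out knockout animal 2, at 0.73 with an adjusted p of 0.0507, or knockout animal 4, at 0.68 with an adjusted p just above 0.05.

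Mdh2, the mitochondrial malate dehydrogenase, was lower in every knockout animal than in any control but did not pass the test. Control animals 1 to 4 stood at 18.33, 18.55, 18.39 and 18.39, and knockout animals at 17.96, 18.30, 17.94 and 18.12. The margin between the groups rested on knockout animal 2 and control animal 1. The difference was -0.33 ± 0.12 (SE; 95% interval -0.60 to -0.071; adjusted p = 0.111). Its single arrays reached an intensity of 402451, while the maxima of the arrays ran from 437047 to 761817. Linearity in that range was not tested. The difference shrank to -0.19 under both quantile normalization and cyclic loess. A fit on the 24 separate arrays, blocked by animal, passed it (adjusted p = 0.0206, and 0.0318 with the hybridisation number as a replicate block). That fit set 1 correlation between arrays of an animal, 0.378, for all genes, and so counted hybridisations partly as replicates.

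The shift of Mdh1 relative to Mdh2 can be read within each animal, with only the change between groups carrying meaning. Mdh1 minus Mdh2 was -5.89, -6.37, -6.59 and -6.60 in the controls and -5.39, -5.40, -5.23 and -5.05 in the knockouts. All knockout animals lay above all controls, by 1.10 on the log2 scale between the means. The exact permutation test (two-sided) returned p = 0.0286, the smallest that 4 against 4 animals allow. Adjusted over the 2 pairs of a cytosolic and a mitochondrial form, p was 0.0571. The groups lay apart in opposite directions for Mdh1 and Mdh2, so the unadjusted p was already fixed and adds no support. The adjusted p could have been lower only if the other pair had also reached the smallest p. The second pair, Idh1 minus Idh2, shifted by -0.095 (exact two-sided permutation p = 0.600, adjusted p = 0.600) with overlapping groups.

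**Figure D2:**
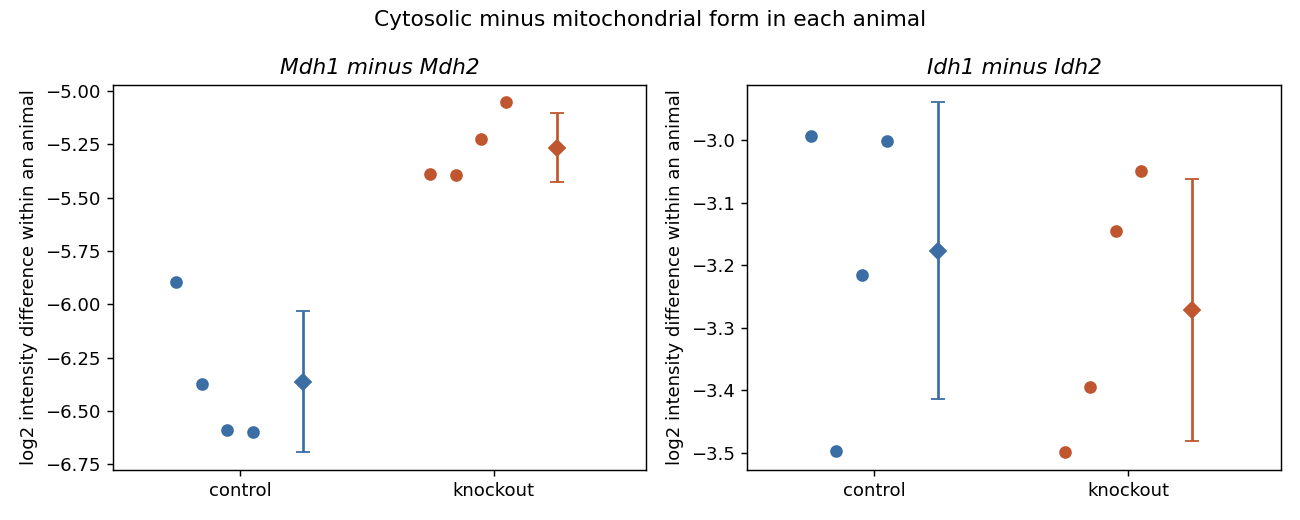
Log2 intensity of the cytosolic minus the mitochondrial form in each animal (points), for Mdh1 minus Mdh2 (left) and Idh1 minus Idh2 (right); diamonds and bars give the mean and SD of 4 animals. The knockout mean is -5.27 against -6.36 in control for the malate pair, with no overlap, and -3.27 against -3.18 for the isocitrate pair, where the groups overlap; the absolute values depend on the probes.

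The 250 bases before the RefSeq start of the malate dehydrogenase genes, which differed in direction, are shown for comparison (GRCm38.p6, 5′ to 3′ on the strand of the gene). Mdh1 lies on the minus strand of chr11:21571935-21572184 and Mdh2 on the plus strand of chr5:135778399-135778648. Capitals mark matches on either strand to the GC box (GGGCGG), the CCAAT box (CCAAT) or the palindrome CTCGCGAG, none of which overlap here.
Mdh1: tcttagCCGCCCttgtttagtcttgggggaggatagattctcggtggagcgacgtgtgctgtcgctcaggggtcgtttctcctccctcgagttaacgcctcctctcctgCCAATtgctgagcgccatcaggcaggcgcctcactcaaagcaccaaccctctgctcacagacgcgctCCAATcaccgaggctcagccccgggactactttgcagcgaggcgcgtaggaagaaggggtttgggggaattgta
Mdh2: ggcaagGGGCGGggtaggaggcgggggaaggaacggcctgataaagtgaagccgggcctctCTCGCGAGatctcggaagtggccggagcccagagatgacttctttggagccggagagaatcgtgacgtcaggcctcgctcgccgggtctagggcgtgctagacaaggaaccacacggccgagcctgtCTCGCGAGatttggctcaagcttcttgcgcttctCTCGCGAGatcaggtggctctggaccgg
The Mdh1 window held 2 CCAAT boxes and 1 GC box, and the Mdh2 window 1 GC box and 3 copies of the palindrome, a motif that was searched for after this sequence had been seen. Of 32851 RefSeq windows of the same length 33.8% held a CCAAT box, 32.7% a GC box and 0.761% the palindrome. Those windows had medians of 52.4% G or C and 6 CG pairs, against 59.2% and 17 in Mdh1 and 63.2% and 23 in Mdh2. Shares among windows of like composition were not computed. Among the members with a window (6 of 7; Idh3a had no entry) the palindrome occurred in Mdh2 alone. None of the 6 matched an E-box (CACGTG, 6.02% of windows) or the letters TNAAGGTCA of an oestrogen-related receptor site (1.14%). These are matches of letters, and binding was not measured.

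Idh3g, a regulatory subunit of the NAD-dependent enzyme of the cycle, fell 1.63-fold. Control animals 1 to 4 had levels of 17.27, 17.39, 17.18 and 17.26, and knockout animals 16.68, 16.43, 16.51 and 16.69. Every knockout animal was low and the gap between the groups exceeded the range within each, although 1 control array (16.89) lay below the highest knockout array (16.95). The difference was -0.70 ± 0.11 (SE; 95% interval -0.95 to -0.45; adjusted p = 0.00335), from mean intensities of 158637 to 97620. It was larger in size than that of 95.2% of genes. The call held without any 1 of the 8 animals (-0.74 to -0.65). Within the lower and the higher series of animal numbers, with 2 animals a group, the difference was -0.78 (adjusted p = 0.130) and -0.62 (adjusted p = 0.0692). Under quantile normalization and cyclic loess it was -0.59 and -0.58, and it still passed.

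The window before the Idh3g start is shown because this gene had the clearest fall (minus strand, chrX:73786898-73787147, GRCm38.p6). Capitals mark its 1 match among the 6 motifs, to the letters GCGCNTGCG of a nuclear respiratory factor 1 site.
Idh3g: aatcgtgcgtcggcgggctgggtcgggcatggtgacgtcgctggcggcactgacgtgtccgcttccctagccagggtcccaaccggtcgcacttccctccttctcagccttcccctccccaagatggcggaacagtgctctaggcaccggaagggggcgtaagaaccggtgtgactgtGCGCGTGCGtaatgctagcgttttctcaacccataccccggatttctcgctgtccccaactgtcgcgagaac
The match covers positions -72 to -64, counting from -1 at the base before the start. It was found in Idh3g alone of the 6 members with a window and in 5.19% of all windows, and the letters were shortened after a longer form had matched no member. The Idh3g window had 62.8% G or C and 24 CG pairs, against medians of 52.4% and 6 over all windows. The share among windows of like composition was not computed.

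Idh3a, the catalytic subunit of the same enzyme, did not pass in either row. In the brighter row the controls stood at 17.37, 17.28, 17.18 and 17.09 and the knockouts at 17.01, 17.18, 17.02 and 17.13, so that the groups overlapped. Its difference was -0.14 ± 0.11 (SE; 95% interval -0.39 to 0.10; adjusted p = 0.459), and the second row gave -0.055 (95% interval -0.30 to 0.19; adjusted p = 0.803). The brighter row's difference shrank to -0.043 under quantile normalization and -0.021 under cyclic loess. Idh3a and Idh3g were not compared with each other by a test.

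Idh3b, the remaining subunit, gave no usable level. Its animal means were 6.72, 6.34, 6.69 and 6.79 in control and 6.76, 6.56, 6.44 and 7.08 in knockout muscle, and knockout animal 4 alone exceeded the dim level. Hybridisations of an animal differed with an SD of 0.48, against 0.14 to 0.19 for the other 6 genes. The row's difference of 0.076 ± 0.16 (SE; adjusted p = 0.806) is therefore given without a fold, and it took the other sign when some animals were left out.

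Idh1, the cytosolic and peroxisomal source of NADPH, was lower in all knockout animals and did not pass the test. Control animals 1 to 4 stood at 12.33, 12.19, 11.88 and 12.03 and knockout animals at 11.71, 11.77, 11.67 and 11.85. Control animal 3 and knockout animal 4 nearly met, so the gap between the groups was narrow. The difference was -0.36 ± 0.12 (SE; 95% interval -0.63 to -0.083; adjusted p = 0.102). It passed under quantile normalization (-0.32; adjusted p = 0.0414), cyclic loess (-0.31; adjusted p = 0.0466) and the fits on all arrays (adjusted p = 0.0257, and 0.0384 with the replicate block). The fits on all arrays counted hybridisations partly as replicates. In the lower and higher series of animal numbers the difference was -0.52 and -0.19.

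Idh2, its mitochondrial counterpart, differed by less than its spread between animals allowed to be called. Levels were 15.32, 15.68, 15.10 and 15.03 in the controls and 15.21, 15.17, 14.81 and 14.90 in the knockouts, and the groups overlapped. Animals of the lower number series were the higher ones in both groups. The difference was -0.26 ± 0.16 (SE; 95% interval -0.62 to 0.097; adjusted p = 0.352). Control animal 2 was the highest of all, and without it the difference was -0.13. Under cyclic loess it was -0.17.

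**Figure D3:**
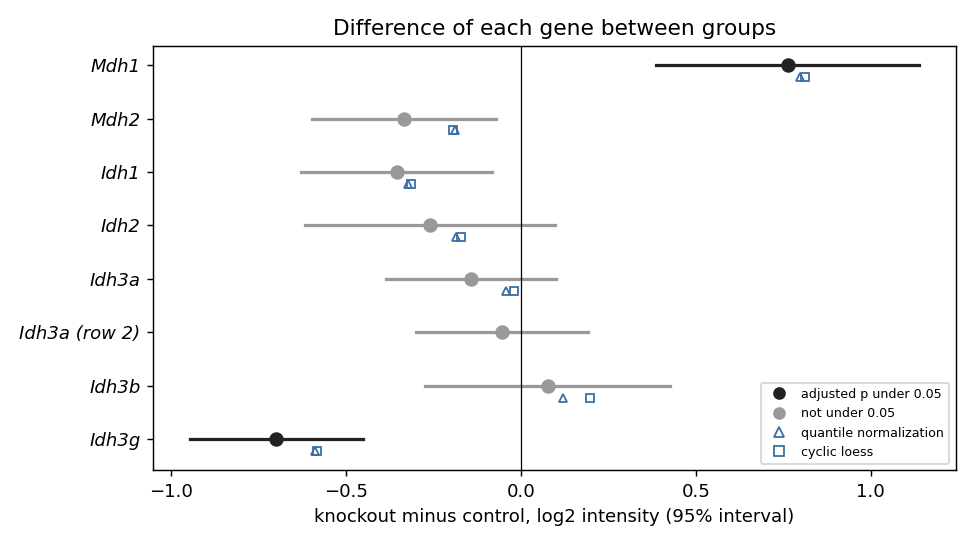
Knockout minus control difference in log2 intensity (horizontal axis) of each gene, with the second Idh3a row, as a point with its 95% interval; black marks an adjusted p under 0.05, and open triangles and squares give the value under quantile normalization and cyclic loess. Mdh1 (0.76) and Idh3g (-0.70) pass, and Idh3b is a dim row.

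The genes around these enzymes changed in part and in both directions. Of 29 measured citric acid cycle and pyruvate dehydrogenase genes, 2 rose and 3 fell, with a median of -0.20 that moved to -0.12 under quantile normalization and -0.11 under cyclic loess. Apart from the 5 members on that list, 2 of 24 rose and 2 fell, beside 4.28% and 5.01% of all genes. Fh1, the fumarase that supplies malate to Mdh2, fell 1.55-fold (-0.63 ± 0.13, SE; adjusted p = 0.0136). Its controls ran from 16.23 to 16.59 and its knockouts from 15.59 to 15.99. Pdha1, a catalytic subunit of pyruvate dehydrogenase, fell 1.42-fold (-0.51; adjusted p = 0.0325). Pdk1, a kinase that switches that enzyme off, rose 1.68-fold (0.75; adjusted p = 0.00777), and Pdp1, the phosphatase that switches it on, rose 1.73-fold (0.79; adjusted p = 0.0309). Leaving out 1 animal ended the call of Pdha1 for 6 of the 8 animals and that of Pdp1 for 5, and ended neither that of Fh1 nor that of Pdk1. Citrate synthase, Cs, which opens the cycle and was picked out after its values were seen, stood at -0.034 (adjusted p = 0.901).

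Among 7 malate-aspartate shuttle genes Mdh1 alone passed. Slc25a11, the carrier that exchanges malate for 2-oxoglutarate, stood at -0.65 (adjusted p = 0.0744) with its groups apart. Its controls ran from 17.37 to 17.73, and knockout animal 4, at 16.18, lay below the other knockouts (17.02 to 17.21). The aspartate aminotransferases Got1 and Got2 stood at 0.035 and 0.024 and the aspartate-glutamate carriers Slc25a12 and Slc25a13 at -0.045 and -0.14. In the other route for cytosolic NADH, the glycerol 3-phosphate shuttle, neither of the 2 measured genes passed in limma. Both had an unadjusted p under 0.05, as did 4264 of all 17742 genes. Gpd1 stood at -0.42 (adjusted p = 0.0560) and Gpd2 at -0.36 (adjusted p = 0.155). Of 3 genes of citrate export and use none passed in limma and 1 had an unadjusted p under 0.05, with malic enzyme Me1 at -0.45 (adjusted p = 0.0761) and the citrate carrier Slc25a1 at 0.13 (adjusted p = 0.617). Among 9 genes of NADPH and 2-oxoglutarate Sirt3, a mitochondrial deacetylase, fell 1.69-fold (-0.76; adjusted p = 0.00272), and Idh1 had the next smallest p. Over the 4 lists together 1 of 21 genes rose and 1 fell, with a median of -0.14; the shares of all genes were 4.28% and 5.01%. Without the members, 0 of 17 rose and 1 fell, with a median of -0.045. Of these 17, 6 had an unadjusted p under 0.05 in limma, beside 4264 of all 17742 genes.

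**Figure D4:**
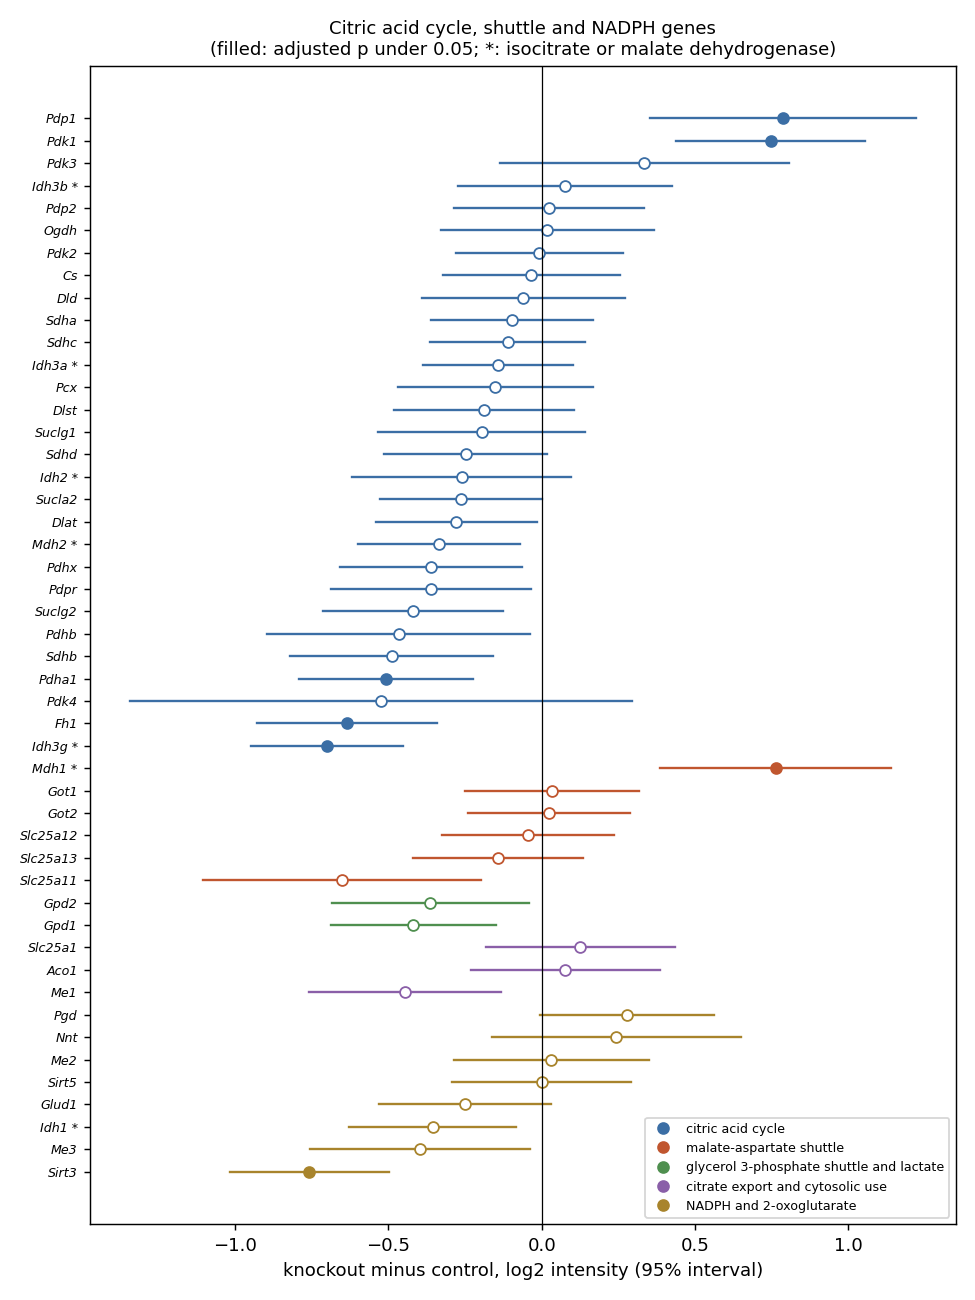
Knockout minus control difference in log2 intensity (horizontal axis) with its 95% interval for each measured gene of the citric acid cycle, shuttle and NADPH lists, coloured by the first list that holds it; filled points have an adjusted p under 0.05 and stars mark the isocitrate and malate dehydrogenases. Filled points are Pdp1, Pdk1 and Mdh1 above 0 and Pdha1, Fh1, Idh3g and Sirt3 below 0.

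Whole muscle holds fibres and other cells, and in such samples fewer cells of a type and less RNA per cell cannot be told apart. Marker lists are given by the mean level over their measured genes in each animal, as a range in control and then in knockout animals. Of 7 fast fibre genes listed, 4 were measured, with no myosin among them. These 4, which mark this muscle, were at 18.11 to 18.55 and 17.89 to 18.42, and none passed. Of 6 slow fibre genes listed, 3 were measured, again with no myosin. These 3 were at 12.06 to 12.22 and 12.73 to 13.28, with Tnni1 (1.01) and Tnnt1 (1.27) higher in knockout. The list of 7 endothelial genes was at 12.48 to 12.86 and 11.88 to 12.25, with Gpihbp1, Icam2 and Emcn lower. The list of 4 smooth muscle and pericyte genes was at 11.33 to 11.71 and 10.95 to 11.17, with Acta2, Tagln and Rgs5 lower. The list of 7 adipocyte genes was at 10.43 to 11.34 and 10.08 to 10.18, with Lep, Cidec and Cfd lower. Of 3 brown adipocyte genes, with a list mean of 7.36 to 7.82 and 8.35 to 9.08, Ucp1 (group means 6.97 and 9.25) and Cidea (9.64 and 10.60) rose, and Elovl3 was dim in both groups. Alas2, the only gene measured of 3 listed for red cells, fell, from 11.38 to 11.85 in control to 10.06 to 11.26 in knockout animals. S100b fell (group means 9.18 and 8.40) on a list of 2 Schwann cell genes whose mean was at 10.15 to 10.76 and 9.29 to 10.06. Calcr fell (7.38 and 6.21, the latter dim) on a list of 3 satellite cell genes at 8.68 to 8.74 and 8.17 to 8.51. The other genes of that list, Pax7 (0.24) and Vcam1 (-0.14), did not pass and differed in direction. Cd163 fell (10.59 and 9.65) on a list of 5 macrophage genes whose mean overlapped between the groups, at 10.20 to 11.06 and 10.29 to 11.12. The others on it, Cd68 (1.01), Adgre1 (0.48), Csf1r (0.028) and Mrc1 (-0.006), did not pass, and most were not lower. None of 5 fibroblast genes passed, with a list mean of 11.65 to 12.01 and 11.57 to 12.33. The part of these cell types in the differences of Mdh1 and Idh3g was not tested.

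For the genes that passed, the closest patterns among animals were sought over the deviations of the 8 animals from their group means, as a description with no test. Idh3g lay closest to Slc19a1 (Pearson r = 0.978), Gde1 (0.975) and Commd3 (0.968), of which Gde1 also fell (-0.56; adjusted p = 0.0191). Mdh1 lay closest to Zfp335 (r = 0.997), Ankrd16 and Adss (both 0.990), and none of these 3 passed between groups (0.19, -0.078 and 0.025). All these correlations are the highest among the genes searched over only 8 animals, and no background for such maxima was computed.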

How the data were processed

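The deposited table, made by the authors, held 1 linear probe intensity per array for 24 arrays; per the labels total RNA was hybridised in 1 channel, with Cy3 and Cy5 both named as its dye. No source used here names the scanner, the background correction or the scaling. The columns shared a median of 626.429. Values under 38.8, the 5th percentile of all values, were set to that floor, log2 was taken and the 3 hybridisations of an animal were averaged. Symbols were updated through a RefSeq table (GRCm38.p6): 18213 rows matched a current symbol, 2126 a synonym, 38 neither, and 6046 had none. The row of highest mean stood for a gene. Knockout was set against control in limma 3.58.1 (R 4.3.3), with Benjamini-Hochberg adjustment over 17742 genes. Intensities up to 125, the largest among the arrays' own 5th percentiles, were called dim. The fit was tested on simulated data. Members, lists and tests were chosen with earlier results of these data known; named are all members, list genes that passed (or the 2 of smallest p) and, for members that passed, the 3 closest patterns. Got1, Got2, Slc25a12, Slc25a13, Cs and the satellite cell and macrophage genes that did not pass were named outside this rule, after their values were seen. By the median, hybridisation numbers showed little pairing. Arrays of the same number but different animals had a median correlation of deviations of 0.042 (-0.63 to 0.75). For other numbers the median was -0.017 (-0.65 to 0.63). A median cannot show pairing among some animals only. The number of animals limits the precision. Alternatives covered scaling, floor, filter, rows, replicate unit, variances, series of animal numbers and leaving out animals or hybridisations.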

Additional observations from a re-analysis of the deposited data

How the results depend on the processing

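Mdh1 and Idh3g kept their direction under all 25 alternatives run, and passed in 21 and 23 of them, with differences of 0.43 to 1.10 and -0.78 to -0.58. Idh1, passing in 4, and Mdh2, passing in 2 (both fits on separate arrays), also kept theirs, as did Idh2 and Idh3a, which passed in none. Where only the variances, filter, block or choice of rows changed, Mdh1 and Idh3g kept exactly the main difference, so direction could not turn. The dim row of Idh3b turned to -0.037 with a higher floor, and ran from -0.13 to 0.35 when an animal or hybridisation was left out. The counts of genes, members, citric acid cycle genes and shuttle genes that passed were 1647, 2, 5 and 2. They became 3149, 4, 11 and 7 in the fit on separate arrays blocked by animal, 2978, 4, 10 and 6 with the replicate block added, 62, 0, 0 and 0 in the lower series of animal numbers alone and 508, 1, 1 and 1 in the higher. Leaving out 1 animal or hybridisation gave 945 to 1693, 1 to 2, 3 to 5 and 1 to 3; the genes numbered 945 without knockout animal 3 and 1062 without control animal 1. Members fell to 1 without control animal 3, knockout animal 2 or knockout animal 4, shuttle genes to 1 without knockout animal 2 or 4, and citric acid cycle genes to 3 without control animal 4 or knockout animal 1. Quantile normalization raised the count of genes to 2569 (cyclic loess: 2463), and quantile normalization, cyclic loess and an intensity trend each raised that of shuttle genes to 4. Adding the hybridisation number as a block to the fit on separate arrays ended none of the calls of its 4 members. The cause of these moves was not tested. Fits on 1 series or with an animal left out also held fewer animals. The median of the 251 genes with a mean of 16 or more moved from -0.15 to -0.032 under quantile normalization and -0.031 under cyclic loess. Every alternative that was planned for a result was run, except that Idh3b gave no value with dim genes left out.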
